A study of Mus musculus with 2 samples.

Results

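The subject here is the part of the mouse autosomes in which no peak of 5-hydroxymethylcytosine (5hmC) was called in fibroblasts at passage 0. Chromosomes 1 to 19 were cut into windows of 1 Mb, and a window was taken as a desert when no passage 0 peak had its midpoint in it. Windows reaching beyond the outermost peaks of a chromosome, over both lists, were left out. There were 311 such windows among 2376, or 13.1% (95% exact interval 11.8% to 14.5%). The passage 0 list chose them, so their number and layout are a description. The passage 5 peaks in them played no part in the choice, apart from setting the ends of the chromosomes together with the passage 0 peaks.

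Mouse embryonic fibroblasts (MEFs) harvested at passage 5 were set against MEFs harvested at passage 0. Both came from C57BL/6 embryos of day 13.5 and were grown in high-glucose DMEM with 10% fetal calf serum. Sonicated DNA was enriched for 5hmC by GLIB precipitation with a commercial kit and sequenced, and there was 1 library at each passage. The authors' peak lists held 6700 autosomal peaks at passage 5 and 60086 at passage 0, with coordinates in mm9. The read depth is unknown, there is no replicate error, and intervals cover counting error only.

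5hmC is made from 5-methylcytosine by the TET dioxygenases, as the first step of active demethylation. In differentiated cells it is known from the bodies of transcribed genes, from enhancers and from the flanks of promoters, and it is sparse where chromatin is silent. Long stretches of the mouse genome hold few genes, and others hold arrays of related genes that fibroblasts keep silent, such as the olfactory and vomeronasal receptor genes. Peak calls report enriched stretches of DNA, so a window without a peak may still hold 5hmC below the threshold of the caller.

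Nearly all of the deserts were also without a peak at passage 5. Of the 311 windows, 15 held a passage 5 peak, which is 4.82% (2.72% to 7.83%). Over all 2376 windows the share with a passage 5 peak was 67.8%. The deserts held 16 passage 5 peaks in all (exact Poisson interval 9.15 to 26), against 6576 in the other 2065 windows. This was 0.0514 passage 5 peaks per Mb in the deserts and 3.18 per Mb in the other windows. The density in the deserts was 1.62% of that in the other windows (0.923% to 2.63%). The reverse share was smaller, as it had to be with 311 deserts and 766 windows without a passage 5 peak. Passage 5 had far fewer peaks. Apart from the values at equal list length given below, the part of peak number was not tested. Of the 766 windows without a passage 5 peak, 296 were deserts, which is 38.6% of them and 95.2% of the deserts. The other 470 windows without a passage 5 peak held passage 0 peaks, with a median of 4 and at most 84. With only the highest-scoring passage 0 peaks, as many as at passage 5, 1027 windows were empty, against 766 at passage 5. Of these 1027 windows, 657 also had no passage 5 peak, out of the 766 without one.

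Passage 5 density rose with the passage 0 number also just outside the definition. The 159 windows with exactly 1 passage 0 peak lay just outside it, and they held 45 passage 5 peaks, or 0.283 per Mb. The deserts had 18.2% of that density (9.59% to 32.8%). Windows with 2 passage 0 peaks had 0.368 passage 5 peaks per Mb, and those with 3 had 0.653. The density went on to 2.02 per Mb in windows with 11 to 20 passage 0 peaks and to 6.44 per Mb in those with 41 or more. The share of windows with any passage 5 peak followed the same order. It was 4.82% in the deserts, 20.1% with 1 passage 0 peak, 23.7% with 2, 45.3% with 3 and 98.6% with 41 or more. The intervals of the deserts and of the windows with 1 passage 0 peak did not overlap for either measure. Passage 5 density did not rise in proportion to the passage 0 number. Passage 5 peaks were 28.3% of the passage 0 number in windows with 1 passage 0 peak and 10.1% with 41 or more. The passage 0 number both groups the windows and is the divisor here, so this fall follows in part from the grouping. Of the 45 passage 5 peaks in windows with 1 passage 0 peak, 28.9% overlapped a passage 0 peak. Among all passage 5 peaks outside the deserts it was 70.1%. Windows with 1 passage 0 peak offer little to overlap, so this contrast follows in part from the choice of windows and is given as a description.

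**Figure D1:**
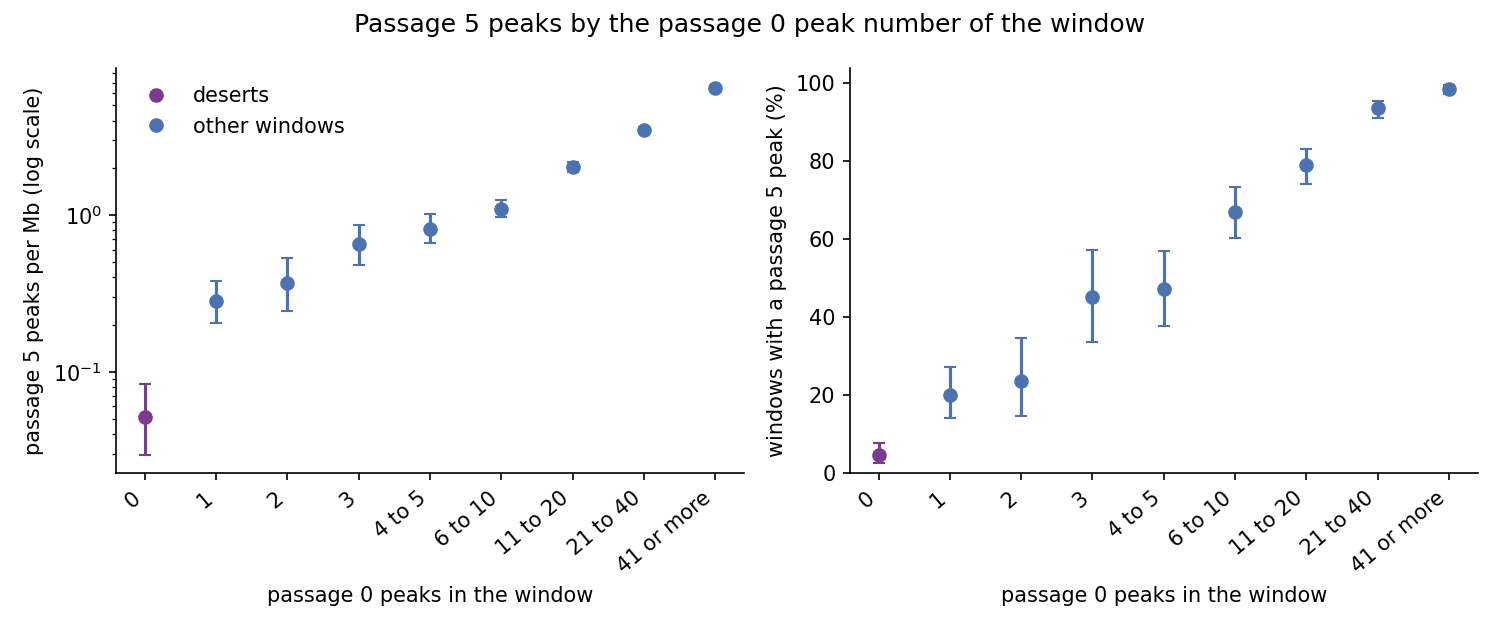
Passage 5 peaks per Mb on a log axis (left) and the share of windows with a passage 5 peak (right), for windows grouped by their number of passage 0 peaks. Points are values over all windows of a class and bars are 95% exact counting intervals; the deserts, at 0.0514 peaks per Mb and 4.82%, lie below every other class.

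The single peaks of the 159 windows with 1 passage 0 peak scored lower on the whole than the other peaks. They had a median score of 103 and a median width of 708 bp, against 129 and 851 bp for the other autosomal passage 0 peaks. Scores are those the authors gave each peak. Of these single peaks, 13 overlapped a passage 5 peak by at least 1 base. That is 8.18% (4.43% to 13.6%), against 7.62% (7.41% to 7.84%) of the other passage 0 peaks, so the intervals overlapped. The 334 passage 0 peaks that border the deserts had similar values, with a median score of 107 and a median width of 738 bp. Among them 6.29% (3.93% to 9.45%) had a passage 5 peak, against 7.63% of the peaks elsewhere.

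Touching deserts were joined, which gave 174 stretches. Of these, 98 were a single window, 42 had 2 windows, 23 had 3, 5 had 4 and 4 had 5 windows. The remaining deserts had 9 and 11 windows. The 34 deserts of 3 or more windows held 129 of the 311 windows, or 41.5%. Measured from the passage 0 peak before a desert to the one after it, the peak-free stretches had a median of 2.38 Mb and ran from 1.04 to 11.6 Mb. A difference in passage 5 density between long and short deserts was not detectable at these numbers. There were 7 peaks in the 98 windows that stood alone, 3 in the 84 windows of pairs and 6 in the 129 windows of longer deserts. These are 0.0714 (0.0287 to 0.147), 0.0357 (0.00737 to 0.104) and 0.0465 (0.0171 to 0.101) peaks per Mb.

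**Figure D2:**
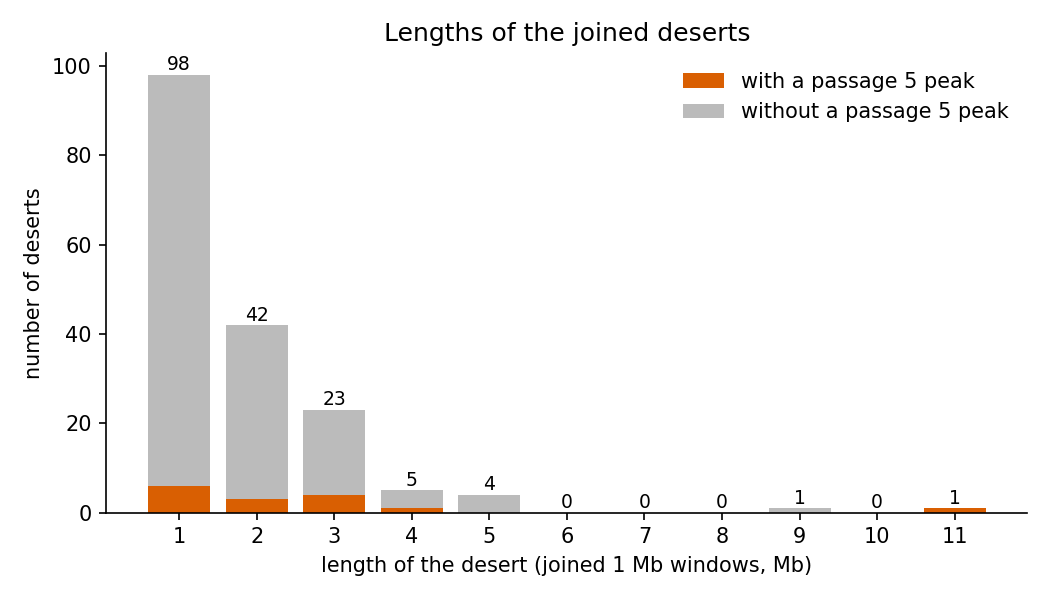
Number of joined deserts by length in Mb, with the numbers above the bars; the lower coloured part counts deserts with a passage 5 peak and the upper grey part those without. Of 174 deserts, 98 were a single window, and 15 of all lengths held a passage 5 peak.

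The longest desert lay on chromosome 1 between 109 and 120 Mb. Its flanking passage 0 peaks left 11.6 Mb free, from base 108615614 to base 120221431, and both were weak, with scores of 81.9 and 80.7. At passage 5 it held 1 peak. The next longest lay on chromosome 7 between 39 and 48 Mb, with a free stretch of 9.07 Mb and no passage 5 peak. Its borders were unlike in strength, with passage 0 scores of 286 on the proximal and 84.2 on the distal side. The 4 deserts of 5 windows were on chromosome 1 at 101 to 106 Mb and at 146 to 151 Mb, on chromosome 5 at 59 to 64 Mb and on chromosome 7 at 8 to 13 Mb. None of these 4 held a passage 5 peak within its windows. The stretches on chromosomes 5 and 7 each had 1 passage 5 peak between the outermost windows and the flanking passage 0 peaks.

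The deserts of 4 windows were on chromosome 2 at 86 to 90 Mb, chromosome 3 at 71 to 75 Mb, chromosome 8 at 101 to 105 Mb, chromosome 14 at 89 to 93 Mb and chromosome 15 at 45 to 49 Mb. Of these 5 deserts, the one on chromosome 15 held 1 passage 5 peak and the others held none. Deserts of 3 windows were the longest on chromosome 4, at 36 to 39 Mb and 50 to 53 Mb, and on chromosome 6, at 62 to 65 Mb and 78 to 81 Mb. The same was true of chromosome 9, at 4 to 7 Mb and 17 to 20 Mb, of chromosome 12, at 18 to 21 Mb, 22 to 25 Mb and 62 to 65 Mb, and of chromosome 18, at 26 to 29 Mb. Among these, the deserts at 4 to 7 Mb of chromosome 9 and on chromosome 18 held 1 passage 5 peak each. On chromosome 12 the first of these deserts was separated from the second by 1 window. On chromosome 14 the deserts at 38 to 41 Mb and 42 to 45 Mb were likewise 1 window apart. On chromosome 1 the deserts at 101 to 106 Mb and 109 to 120 Mb lay 3 windows apart, and 16 of the 19 windows between 101 and 120 Mb were empty.

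The chromosomes differed widely. On chromosome 7, 37 of 148 windows were deserts, which is 25% (18.3% to 32.8%), and on chromosome 1 it was 38 of 192, or 19.8% (14.4% to 26.1%). Together these chromosomes held 75 of the 311 windows. Chromosome 14 followed with 19.3% and chromosome 6 with 17.2%. At the other end, chromosome 19 had 1 desert among 57 windows, or 1.75% (0.0444% to 9.39%), chromosome 11 had 5 of 117 and chromosome 10 had 6 of 124. The shares without a passage 5 peak were higher on every autosome, in a partly different order. They were 47.4% on chromosome 14, 41.2% on chromosome 7, 18.8% on chromosome 11 and 14% on chromosome 19. Over the 19 chromosomes, which share their 2 libraries, Spearman's rho between the passage 5 and the passage 0 share was 0.835, given as a description.

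**Figure D3:**
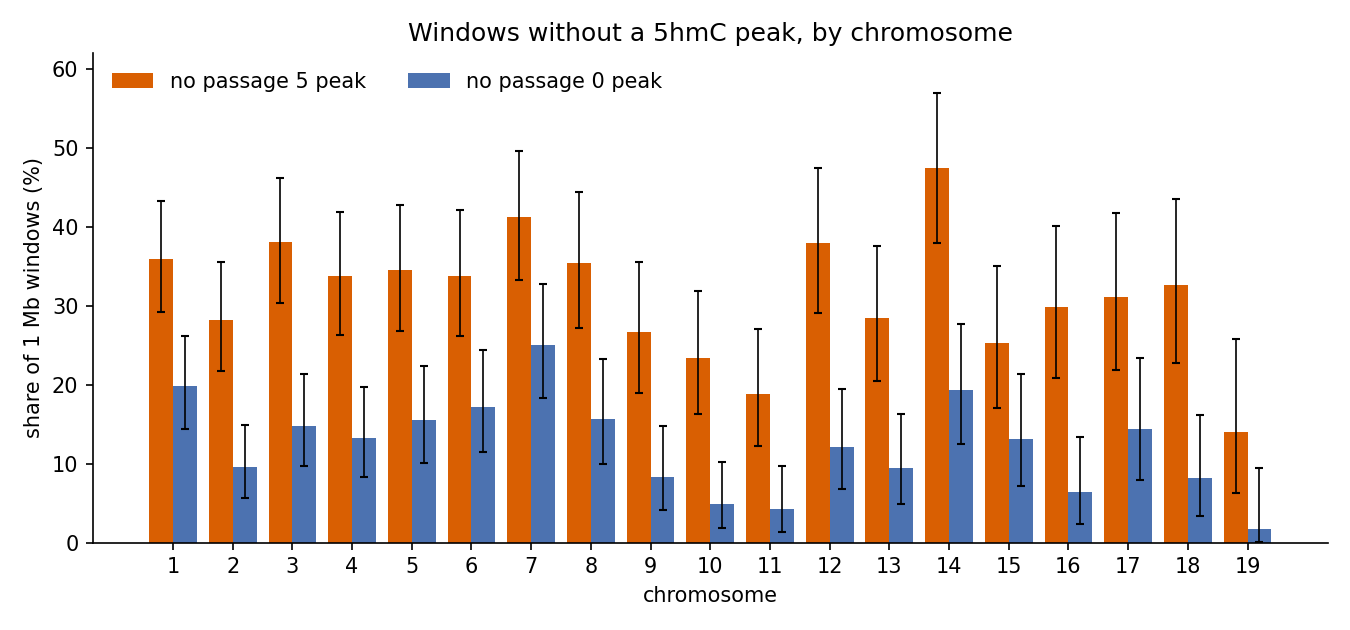
Share of 1 Mb windows without a passage 5 peak (left bar of each pair) and without a passage 0 peak (right bar), by chromosome, with 95% exact binomial intervals. Chromosomes 7, 1 and 14 had the highest passage 0 shares, at 25%, 19.8% and 19.3%, and chromosome 19 the lowest, at 1.75%.

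Chromosome 7 was also described without its deserts. Over all its windows chromosome 7 had 2.45 passage 5 peaks and 19.5 passage 0 peaks per Mb, and the passage 0 value was the lowest of the autosomes. Outside the deserts it had 3.25 passage 5 peaks and 26.0 passage 0 peaks per Mb, within the range of the other autosomes. That range was 2.54 to 3.88 peaks per Mb at passage 5 and 24.1 to 33.9 at passage 0. Chromosome 12, with 24.1, was then the lowest at passage 0. Since deserts hold no passage 0 peak by definition, leaving them out must raise the passage 0 value, and nothing is read from that.

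Deserts were less frequent towards the distal ends. Each chromosome was cut into 3 parts by window number. The part nearest the first peak held 126 deserts in 798 windows, or 15.8% (13.3% to 18.5%). The middle part held 119 in 791, or 15% (12.6% to 17.7%), and the distal part held 66 in 787, or 8.39% (6.55% to 10.5%). Of the last 5 windows of each chromosome, 7 of 95 were deserts (7.37%, 3.01% to 14.6%), and of the first 5 windows 12 of 95 (12.6%, 6.7% to 21%). No desert reached the first window of a chromosome, and 2 reached the last.

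Peak numbers climbed over the first windows outside a desert. At passage 5, the 312 windows next to a desert had 1.37 peaks per Mb (1.24 to 1.5), those 2 windows away 2.84 and those 3 windows away 3.27. Windows 9 or more away had 3.73 per Mb (3.59 to 3.87). At passage 0 the density was 10.2, 23, 31.1 and 34.3 per Mb at these distances. The passage 0 values follow in part from the choice of the windows, while the passage 5 values come from the other library.

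**Figure D4:**
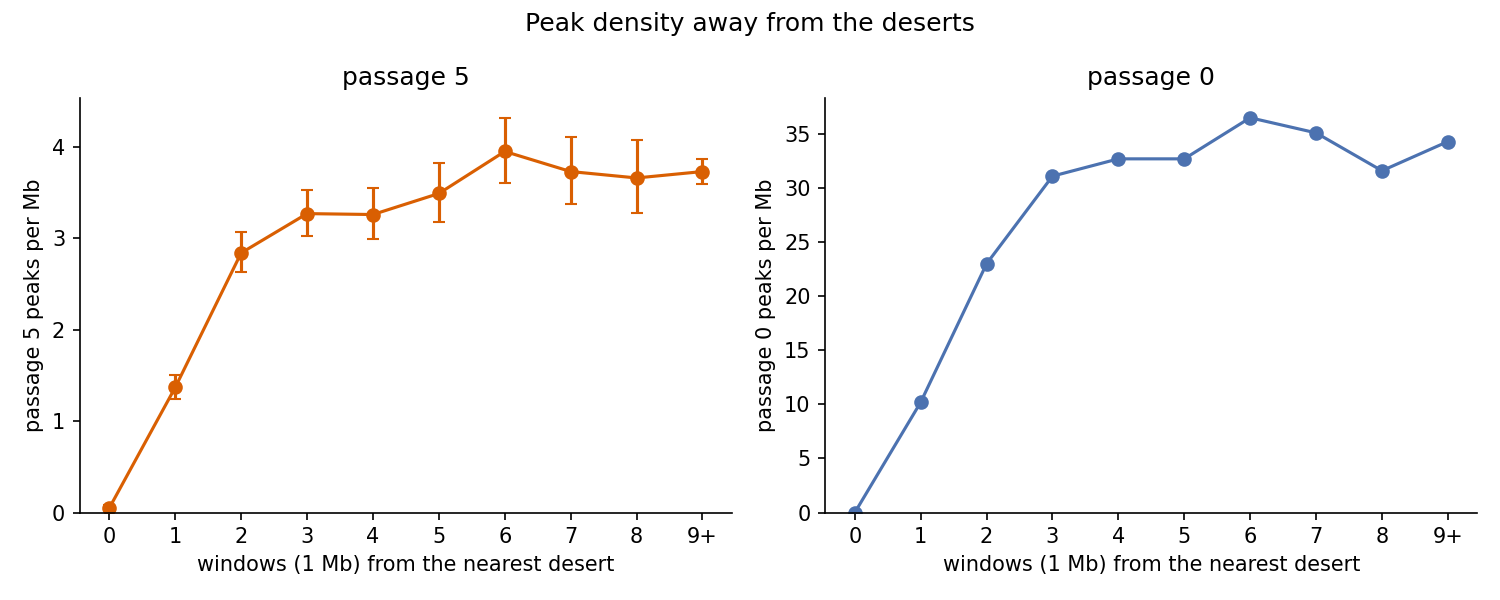
Passage 5 peaks per Mb with 95% exact Poisson intervals (left) and passage 0 peaks per Mb (right) by distance from the nearest desert in 1 Mb windows; 0 stands for the deserts themselves, and the last point for windows 9 or more away. Both curves climb over the first 3 windows, to 3.27 at passage 5 and 31.1 at passage 0.

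The 16 passage 5 peaks in deserts mostly scored below the median of their list. Their scores ran from 88.5 to 199 with a median of 98.6, against a median of 117 for the other autosomal passage 5 peaks. Passage 5 peaks outside the deserts that also overlapped no passage 0 peak had a median of 111. Of the 16, 8 were at or below the lower quartile of the list, at 101, and 5 were above its median. Their widths had a median of 520.5 bp, against 563 bp for the other passage 5 peaks, and ran from 353 to 1130 bp. The 45 passage 5 peaks in windows with 1 passage 0 peak were narrower still, with a median of 498 bp. Their median score was 122, above that of the list. In the plot of score against width, passage 5 scores fell on separate bands that slope down with width. Each of the 16 desert peaks was therefore also set beside those within 10 bp of its width. On that measure 11 of the 16 scored below the median of peaks of like width and 4 above it.

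**Figure D5:**
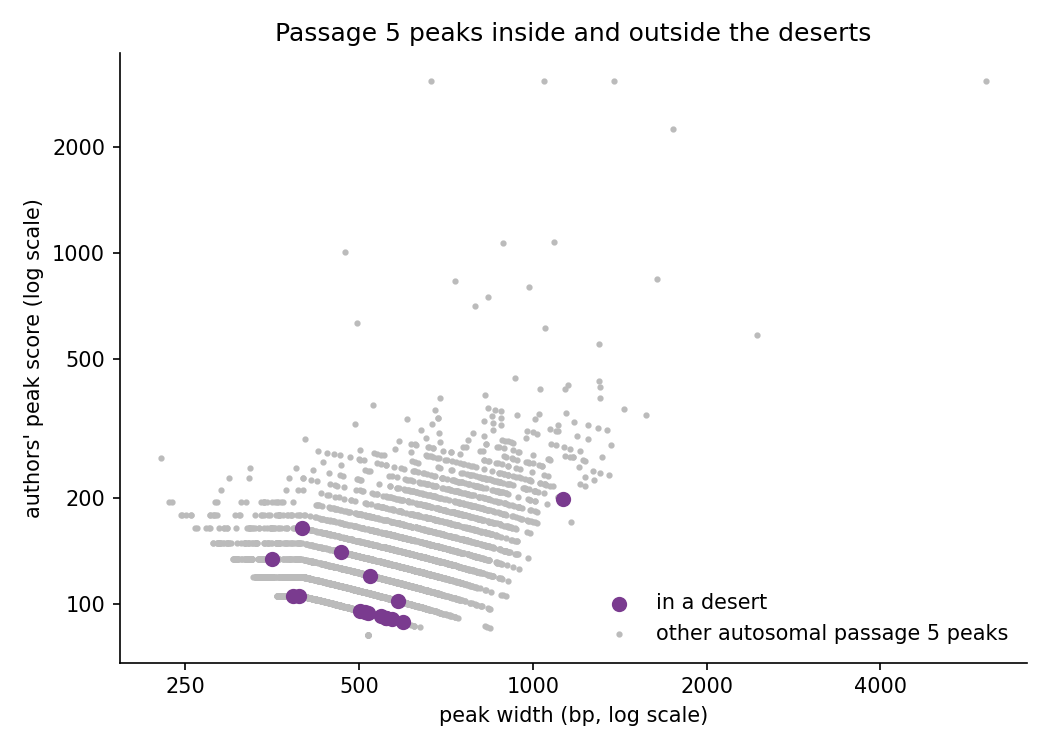
Authors' peak score against peak width in bp, both on log axes, for the 16 passage 5 peaks in deserts (large points) and the other autosomal passage 5 peaks (small points). The 16 have a median score of 98.6, and 5 of them lie above the list's median of 117; 1 peak reaches 199 at a width of 1130 bp.

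The highest score among the 16 was 199, of a peak that occupied bases 107041514 to 107042643 of chromosome 2. Its width of 1130 bp stood at percentile 99.4 of the passage 5 list. Counting itself, 4 peaks were within 10 bp of this width, with a median score of 272, and none of them scored lower. A second peak, at bases 107034299 to 107034651 and scoring 134, lay 6.86 kb away in the same window. These were the only 2 of the 16 that shared a window, and the nearest passage 0 peaks were 126 kb and 119 kb away. The next by score, with 164, spanned bases 84760565 to 84760962 of chromosome 7. It was narrow, at 398 bp, and 91.8% of the peaks within 10 bp of its width scored lower. A score of 140.5 was given to the peak at bases 23069145 to 23069609 of chromosome 2, and 120.3 to that at 7513206 to 7513728 of chromosome 3.

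The other 11 had scores of at most 105. Both peaks at 105 were narrow, on chromosome 1 at bases 47355246 to 47355639 and on chromosome 15 at 48821939 to 48822322. A further peak on chromosome 15, at 21586238 to 21586822, had a score of 102. Scores from 95.5 down to 92.1 belonged to peaks on chromosome 6 at 46868852 to 46869354, chromosome 9 at 5345105 to 5345617, chromosome 13 at 79582541 to 79583058 and chromosome 5 at 7918069 to 7918614. The lowest were on chromosome 18 at 28823301 to 28823856 (91.3), chromosome 1 at 112766044 to 112766601 (91.2), chromosome 12 at 94241478 to 94242048 (90.2) and chromosome 7 at 94494049 to 94494644 (88.5). The chromosome 1 peak with a score of 91.2 was the single passage 5 peak in the longest desert, with the nearest passage 0 peak 4150.4 kb and the nearest passage 5 peak 4342 kb away.

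Apart from the pair on chromosome 2 that lay 6.86 kb apart, these peaks stood far from other passage 5 peaks. Over all 16, the nearest passage 5 peak, which the choice did not use, lay at a median of 1469 kb, against 41.3 kb for the other passage 5 peaks. This distance restates in part the low passage 5 density of the deserts given above. None overlapped a passage 0 peak, and the nearest passage 0 peak lay at a median of 731 kb. Both follow from the choice of windows without passage 0 peaks and are given as a description.

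A few deserts bordered on passage 0 peaks with very high scores. On chromosome 2 the deserts at 97 to 98 Mb and 99 to 101 Mb lay on both sides of a site with passage 0 scores of 3100 at the desert edges. On chromosome 17 the deserts at 38 to 39 Mb and 40 to 42 Mb lay on both sides of a single broad passage 0 peak with a score of 3100. The passage 5 list also held a peak with a score of 3100, its highest on the autosomes, in a window with 1 passage 0 peak. The highest autosomal passage 0 score was 3202. The value of 3100 recurred across these sites and lists, so it does not rank them, and why it recurred was not tested. Without reads it cannot be told apart whether such sites carry 5hmC or gather reads for other reasons. The number of reads that could be placed in each window is not in the lists either, and its part in the deserts was not tested.

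Gene positions at hand were those of another mouse build, so no gene was placed in a desert. As background, the mouse has a large cluster of olfactory receptor genes in the middle of chromosome 2, clusters of vomeronasal receptor genes on proximal chromosome 7 and defensin genes on proximal chromosome 8. The deserts at 86 to 90 Mb of chromosome 2, 8 to 13 Mb of chromosome 7 and 20 to 23 Mb of chromosome 8 lie in those parts of the chromosomes, and which genes they hold was not measured. They are examples picked from 174 joined deserts, and the others, including the longest, were set beside no gene family. Numbers of genes per chromosome can be given, from the RefSeq table of GRCm38.p6. Chromosome 7, with the highest share of deserts, carried 178 of 354 protein-coding vomeronasal receptor genes and 239 of 1104 olfactory receptor genes. It also had 93 genes with Zfp symbols, the zinc finger proteins. With 2030 protein-coding genes it had the most genes of any autosome. Per window this was 13.7, against 13.8 on chromosome 11. Numbers per chromosome do not show which windows hold these genes, and a link between receptor genes and deserts was not tested. Chromosome 2 had the most olfactory receptor genes, 287, and 9.6% deserts, and chromosome 9 had 130 and 8.33%. Chromosome 5 had no olfactory receptor gene, 11 vomeronasal receptor genes and 15.5% deserts, and chromosome 12 had no gene of either family and 12.1%. Chromosome 18 had no olfactory receptor gene, 1 vomeronasal receptor gene and 8.14% deserts. Across the 19 chromosomes the share of deserts had a Spearman correlation of -0.20 with olfactory and vomeronasal receptor genes per window and of -0.14 with all protein-coding genes per window, both as descriptions.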

How the data were processed

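Per the submitters' processing notes, CASAVA 1.8, Bowtie 0.12.7, MACS 1.4.1 and the build mm9 were used. Duplicate handling, input control, calling threshold and the step each tool served: not given in the sources used here. Each library has 1 peak list, and the authors deposited an unnamed score with each peak, which was used only within a list. Coordinates are counted from 1. A peak belonged to the window of its midpoint, and windows had to lie between the first start and last end of both lists. Counts carry exact Poisson, shares exact (Clopper-Pearson) and density ratios exact conditional 95% intervals. With 1 library per passage no test was run. Named are the 10 longest deserts, the longest of each chromosome from 3 Mb, and all passage 5 peaks in deserts, up to 30; the further deserts named on chromosomes 2, 8, 14 and 17 were picked after their values were seen. The windows, lists and alternatives were chosen with earlier results of these data known. The planned count of gene families in deserts was not run, as the gene table at hand is GRCm38.p6. The script was tested on simulated data. Versions were matplotlib 3.10.9, scipy 1.17.1, pandas 2.3.3, numpy 2.4.6 and Python 3.11.15.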

Additional observations from a re-analysis of the deposited data

How the results depend on the processing

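Of 33 recomputed values for 6 results, 20 stayed within 1.5 times a count or length, or within the interval of a share or ratio, and 13 moved further. The 311 deserts became 470 with at most 1 passage 0 peak allowed, 1034 in windows of 500 kb and 70 in windows of 2 Mb. They became 1027, and the longest 19 Mb, when the highest-scoring passage 0 peaks were used, as many as at passage 5, an alternative chosen after seeing the data. With passage 0 scores of at least 100, which opened further windows, the deserts held 40 passage 5 peaks, 7.92% of them held any, and the density ratio was 0.0298 against 0.0162 as reported. With at most 1 passage 0 peak allowed, there were 61 peaks and a share of 10%. With passage 5 scores of at least 100, 8 peaks and a share of 2.25% were left. Against windows with 1 to 5 passage 0 peaks the ratio was 0.102. Each of these follows from fewer or more peaks, or from other windows compared. Shifting the windows by 500 kb gave 330 deserts, a longest of 10 Mb and 19 passage 5 peaks. Leaving out deserts at the first window could change nothing, since there were none. The gene family alternative was not run, because no mm9 annotation was used here. No paired analysis was possible because each passage had 1 library. Unknown read depth limits every count of windows without a peak.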
